A study of Mus musculus with 4 samples.

Results

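*Sox7*, *Sox17* and *Sox18*, which make up the SoxF group of transcription factors, *Nr2f2*, which encodes COUP-TFII, and *Mef2c* were followed in single endothelial cells of mouse ear skin. They are 5 listed genes of the 46517 in the count data, chosen by name. Cells sorted as CD31+/CD45-/Lyve1- from the ear dermis of adult female C57Bl/6 mice (C57BL/6 J and wild-type in the study's methods), with no treatment named, were sequenced by Smart-seq2, a plate-based method with a single sorted cell per well and no molecular identifiers, so that values are reads and not molecules. There were 2 replicates of 2 plates (A and B) with 384 wells each. The labels give an age of 12 to 26 weeks, where the study's methods state a younger range, and pools of 6 mice, and do not settle whether each replicate had its own pool, so the spread between replicates may be partly technical.

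SoxF proteins bind DNA through an HMG box and take part in the formation of arteries, in angiogenesis and in the specification of lymphatic vessels. *Sox17* is best known for a role in arterial differentiation, *Sox18* for its place upstream of *Prox1* during lymphatic development, and *Sox7* acts partly redundantly with both. COUP-TFII is a nuclear receptor that maintains venous identity, opposes Notch signalling and works together with Prox1 in lymphatic endothelium. *Mef2c* encodes a MADS-box factor of muscle and endothelium that responds to flow-linked MEK5-ERK5 signalling and induces *Klf2* and *Klf4*.

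The wells were assigned to classes by markers that include none of the 5 genes. Of the 768 wells per replicate, 350 of replicate 1 and 386 of replicate 2 had at least 20000 reads, a read of at least 2 of the endothelial genes *Pecam1*, *Cdh5* and *Kdr*, and less than 100 CPM (counts scaled to a common total of reads per well) of the immune gene *Ptprc* and of the mural genes *Pdgfrb* and *Kcnj8*. Wells of each replicate were clustered on 61 marker genes. In replicate 1 this gave 13 artery-like, 161 capillary-like, 55 vein-like and 17 lymphatic-like wells. Replicate 2 gave 69 artery-like, 114 capillary-like, 35 vein-like and 95 lymphatic-like wells. The 3 first classes are blood vascular endothelial cells (BECs). Another 104 wells of replicate 1, marked by 6 of 7 fibroblast genes, and 40 of replicate 2, marked by 4 of 6 immune genes, stayed unnamed, and 32 wells of replicate 2 formed a cluster led by mural and fibroblast genes.

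The labels call the cells blood vascular and the sort excluded Lyve1, yet the lymphatic-like wells held a mean of 483 CPM of *Prox1* and 673 CPM of *Lyve1* in replicate 1, and 576 and 2865 CPM in replicate 2. *Prox1* was at most 1.38 CPM in any BEC class, from which wells with 100 CPM or more of either gene had been left out. The arterial marker *Gja4* had 1111 and 237 CPM in artery-like wells, against 19.5 and 2.32 CPM in vein-like wells. For the venous marker *Selp*, vein-like wells had 1209 and 2754 CPM and artery-like wells 8.50 and 12.5 CPM. Both the artery-like cluster and the larger capillary-like cluster of replicate 2 had a single marker of their own among the 10 leading genes, *Sema3g* and *C1qtnf9*, against 5 and 3 in the classes of replicate 1. In the 13 artery-like wells of replicate 1, on which all artery-like values of that replicate rest, capillary markers summed to 10792 CPM and artery markers to 9772 CPM. Capillary-like wells of replicate 2 held artery markers at a sum of 4720 CPM beside 5066 CPM of capillary markers. Classed wells held 20169 to 569668 reads, with medians of 141502 in replicate 1 and 125615 in replicate 2. Replicate 1 had more RNA of mural cells in its BEC classes: the 11 mural markers summed to means of 1020 to 1911 CPM per class, against 327 to 382 CPM in replicate 2.

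The 3 SoxF genes lie on separate chromosomes of the mm10 build, *Sox7* (ENSMUSG00000063060) at chr14:63943673-63950732 on the plus strand, *Sox17* (ENSMUSG00000025902) at chr1:4490931-4497354 and *Sox18* (ENSMUSG00000046470) at chr2:181669836-181671640, both on the minus strand. *Nr2f2* (ENSMUSG00000030551) is at chr7:70351944-70366735 on the minus strand and *Mef2c* (ENSMUSG00000005583) at chr13:83504034-83667080 on the plus strand. Since SoxF genes are paralogs, the 60 coding bases in which they are most alike are shown, to let the risk of shared reads be judged. These bases encode part of the HMG box. They lie at chr14:63947799-63947858 in exon 2 of *Sox7*, chr1:4492565-4492624 in exon 5 of *Sox17* and chr2:181670893-181670952 in exon 2 of *Sox18*, and are printed from GENCODE vM21 in the direction of transcription, with capitals at the 12 positions that are not the same in all 3 genes.
Sox7: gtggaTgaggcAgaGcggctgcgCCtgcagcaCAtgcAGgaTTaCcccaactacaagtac
Sox17: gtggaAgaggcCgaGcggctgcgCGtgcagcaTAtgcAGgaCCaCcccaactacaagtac
Sox18: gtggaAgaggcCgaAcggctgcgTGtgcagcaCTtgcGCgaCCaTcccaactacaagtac
*Sox17* shared 54 of these bases with *Sox7* and 53 with *Sox18*, and *Sox7* shared 49 with *Sox18*. Over whole transcripts no run of 50 bases, the length of the reads, was common to any pair, and the longest common run had 29 bases, in *Sox17* and *Sox18*. Exons of *Sox17* and *Nr2f2* overlap non-coding genes on the opposite strand, *Gm37587* over 804 bases and *B130024G19Rik* over 643 bases. In the classed wells *Gm37587* had 156 and 263 reads in replicates 1 and 2, against 15655 and 14649 of *Sox17*, and *B130024G19Rik* had 202 and 735 reads, against 2196 and 4386 of *Nr2f2*. Whether the counting used strand is not given, so the antisense reads cannot be told apart.

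Per kilobase of exon, *Sox18* was the most abundant of the 5 genes in BECs. Its mean level over the wells of the 3 BEC classes was 671 CPM per kb in replicate 1 and 475 in replicate 2. *Sox7* followed with 124 and 85.7 CPM per kb, and *Sox17* with 87.5 and 74.4. The order of *Sox7* and *Sox17* rests on the exon lengths, since without division by length *Sox17* had 417 and 355 CPM and *Sox7* 408 and 283 CPM. These means rest largely on capillary-like wells, and in artery-like wells *Sox17* was above *Sox7* in both replicates, with 259 and 89.8 against 32.3 and 56.6 CPM per kb. *Mef2c* had 14.1 and 15.3 CPM per kb and *Nr2f2* 4.19 and 4.56. Exon lengths are the union over all annotated transcripts, from 1.62 kb for *Sox18* to 15.7 kb for *Mef2c*, and for a gene with many transcripts, such as *Mef2c* with 31, the union is longer than a single transcript and lowers the value. Levels below are mean CPM per well within a replicate and are compared between classes of the same gene only.

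The mean level of *Sox17* fell from artery-like through capillary-like and vein-like to lymphatic-like wells in both replicates. It stood at 1234, 398, 282 and 16.7 CPM in replicate 1 and at 428, 364, 179 and 7.13 CPM in replicate 2, in that order of classes. In replicate 1 the artery-like wells stood well above the others, whereas in replicate 2 artery-like and capillary-like wells lay close together. The ranges of the 2 replicates did not overlap between any neighbouring classes. Every artery-like well of replicate 1 and 43.5% of those of replicate 2 had at least 100 CPM.

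*Nr2f2* had the opposite order in the means of both replicates, lowest in artery-like and highest in lymphatic-like wells. From artery-like to lymphatic-like wells it had 6.86, 17.9, 96.4 and 216 CPM in replicate 1. The corresponding levels of replicate 2 were 3.71, 32.8, 131 and 282 CPM. The artery-like levels rest on 8 and 19 reads in all, and 0 of 13 and 0 of 69 artery-like wells reached 100 CPM, with upper limits of 24.7% and 5.21%. The ranges of the replicates did not overlap between neighbouring classes. In replicate 2, a single well gave 44.1% of the capillary-like sum, and the 2 capillary-like clusters differed, at 3.87 CPM in the 75 wells of the larger and 88.4 CPM in the 39 wells of the smaller. The plates of replicate 2 differed too, since capillary-like wells had 56.5 CPM on plate B and 3.49 CPM on plate A, where artery-like wells had 4.14 CPM, so the step from artery-like to capillary-like wells was absent on that plate.

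*Sox18* had mean levels of 469 CPM or more in all 4 classes. Replicate 1 had 1244 CPM in artery-like, 1174 in capillary-like, 795 in vein-like and 488 in lymphatic-like wells. Replicate 2 had 686, 878, 581 and 469 CPM. Lymphatic-like wells were thus lowest in both replicates, at 478 ± 13.6 CPM (SD, n = 2), and the artery-like and capillary-like classes changed places between the replicates. The medians of lymphatic-like wells were 134 and 106 CPM, against 1032 and 509 CPM over all BEC wells. A single well gave 27.5% of the lymphatic-like sum of replicate 1.

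*Sox7* had lower mean levels in artery-like and lymphatic-like wells than in the other classes. Its levels were 106 CPM in artery-like, 472 in capillary-like, 290 in vein-like and 160 in lymphatic-like wells of replicate 1, and 187, 309, 386 and 132 CPM in replicate 2. Capillary-like and vein-like wells were the highest in both replicates but in a different order, and artery-like and lymphatic-like ranges overlapped. In replicate 1 a single well supplied 48.3% of the artery-like and 47.3% of the lymphatic-like sum, and in replicate 2 a single well supplied 37.5% of the lymphatic-like sum.

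*Mef2c* had no common order of classes in the 2 replicates. Replicate 1 had 175 CPM in artery-like, 242 in capillary-like, 175 in vein-like and 95.7 in lymphatic-like wells. In replicate 2 the capillary-like wells were lowest with 215 CPM, and artery-like, vein-like and lymphatic-like wells had 252, 306 and 285 CPM. In replicate 1 a single well gave 42.4% of the artery-like and 44.7% of the lymphatic-like sum. The ranges of all 4 classes overlapped, and lymphatic-like wells were lowest in replicate 1 only.

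**Figure D1:**
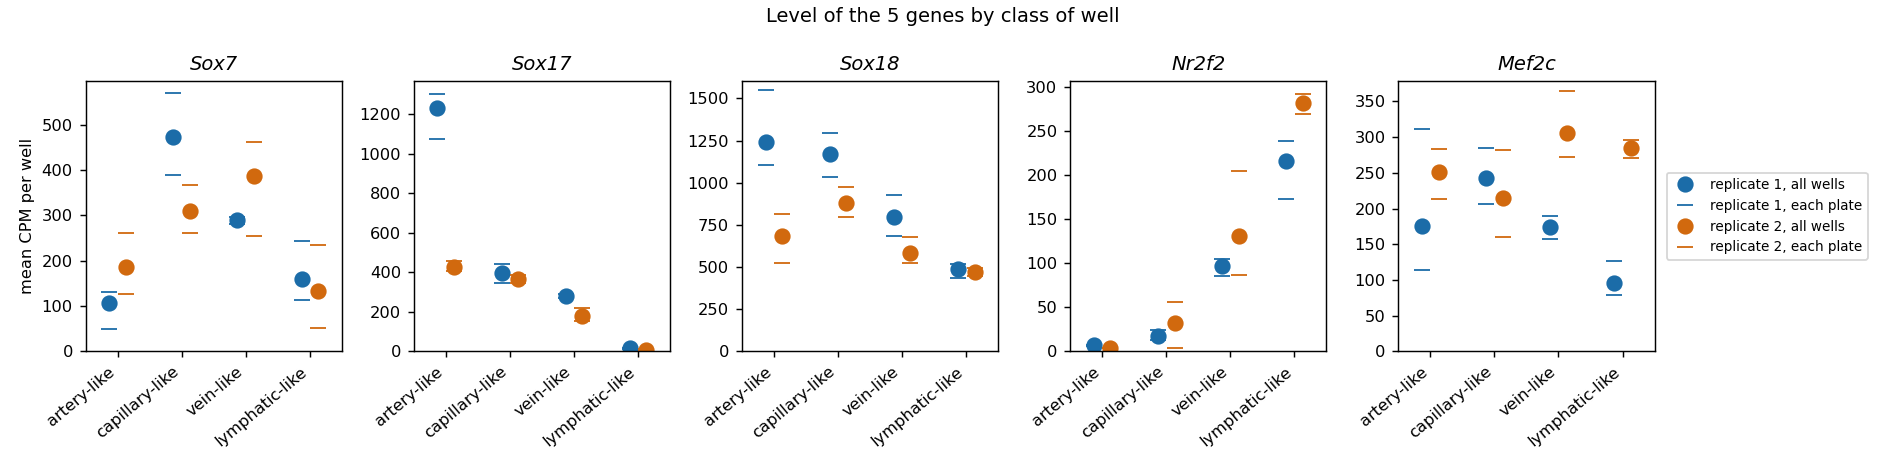
Mean CPM per well (y axis, linear, a separate scale for each gene) of the 5 genes in artery-, capillary-, vein- and lymphatic-like wells (x axis). Circles are the means over all wells of replicate 1 (blue) and replicate 2 (orange) and dashes are the means of single plates. *Sox17* descends from 1234 and 428 CPM in artery-like wells to 16.7 and 7.13 CPM in lymphatic-like wells, *Nr2f2* rises from 6.86 and 3.71 to 216 and 282 CPM, and *Mef2c* has no order common to the replicates.

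Differences between classes were tested on counts summed per class and replicate, 8 sums in all, with edgeR's quasi-likelihood test and Benjamini-Hochberg adjustment over the 15742 genes that passed a low-count filter, at a threshold of 0.05. All 5 genes passed that filter. Fold changes are log2 values with standard errors. Between lymphatic-like wells and the mean of the 3 BEC classes, *Sox17* was lower and *Nr2f2* higher. These were 2 of the 5 genes, where 2.8% of all tested genes passed. For *Sox17* the log2 fold change was -6.00 ± 0.52 (adjusted p = 0.000598), with -5.50 in replicate 1 and -6.52 in replicate 2. *Nr2f2* had a log2 fold change of 3.81 ± 0.50 (adjusted p = 0.00426), with 3.65 and 4.0 in the replicates. Neither call remained when the limit on non-BEC genes was 10 CPM, which left 16 wells of replicate 1 in the 4 classes, at log2 fold changes of -7.21 for *Sox17* (adjusted p = 0.0769) and 5.07 for *Nr2f2* (adjusted p = 0.301), with 87 of 13497 genes past the threshold.

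The other 3 genes did not pass in this comparison. *Sox7* had a log2 fold change of -1.27 ± 0.40 (adjusted p = 0.189) and *Sox18* of -0.65 ± 0.24 (adjusted p = 0.275), each lower in lymphatic-like wells of both replicates. *Mef2c* stood at -0.39 ± 0.43 (adjusted p = 0.792), with opposite signs in the 2 replicates. The mural markers, summed, were lower in lymphatic-like than in BEC wells, at 313 CPM in replicate 1 and 70.9 CPM in replicate 2. In wells whose mural markers summed to less than 300 CPM, *Sox17* had -6.14 (adjusted p = 0.000647) and *Nr2f2* 4.29 (adjusted p = 0.0146) on the log2 scale.

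None of the 5 genes passed the threshold between artery-like and vein-like wells, where 0.0508% of all tested genes did. At an unadjusted p under 0.05 there were 3 of the 5, *Nr2f2*, *Sox17* and *Sox18*, and 7.17% of all tested genes. *Nr2f2* came nearest, with a log2 fold change of -5.10 ± 0.81 (adjusted p = 0.119) and values of -4.34 and -5.88 in the replicates. It passed in 3 of 15 alternative analyses, with wells thinned to 20000 reads (adjusted p = 0.033), with no low-count filter (adjusted p = 0.00906) and with DESeq2's Wald test (adjusted p = 3.73e-07). In these fits 38 of 12072, 76 of 26468 and 701 of 15742 genes passed in all, with no adjusted p from DESeq2 for 2747 of the 15742. Over all 15 its log2 fold change ranged from -6.93 to -1.41, nearest to 0 with wells clustered on variable genes. *Sox17* had a log2 fold change of 1.82 ± 0.44 (adjusted p = 0.386), with 2.27 and 1.4 in the replicates, and it did not pass in any of 15 alternatives, over which it ranged from 0.93 to 2.06. The corresponding values were 0.71 ± 0.28 for *Sox18* (adjusted p = 0.673), -0.81 ± 0.46 for *Sox7* (adjusted p = 0.734) and 0.12 ± 0.51 for *Mef2c* (adjusted p = 0.991). Of these 5 genes, only *Mef2c* had opposite signs in the 2 replicates. The median of all tested genes was -0.21 in this comparison and -0.07 with DESeq2's size factors, and no member changed sign with that scaling.

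Between artery-like and capillary-like wells none of the 5 passed in edgeR or DESeq2, and the share of all tested genes in edgeR was 0%, with 297 genes past the threshold by DESeq2's Wald test. At an unadjusted p under 0.05 there were 2 of the 5 and 766 genes in all, or 4.87%. *Nr2f2* stood at -2.76 ± 0.75 and *Sox17* at 1.15 ± 0.43 on the log2 scale, both with an adjusted p of 0.926 and with the same sign in each replicate. With wells clustered on variable genes *Nr2f2* turned to 0.33. Between capillary-like and vein-like wells, again none of the 5 passed with either tool, against 0.0254% of all tested genes in edgeR. At an unadjusted p under 0.05 there were 1 of the 5 and 3.21% of all tested genes. The log2 fold change of *Nr2f2* was -2.34 ± 0.69, with -2.41 and -2.29 in the replicates, and that of *Sox17* was 0.67 ± 0.43, with 0.68 and 0.66 (adjusted p = 1 for both). In counts simulated for artery-like against vein-like wells with the spread of these data, 0% of 44 genes changed 4-fold, 16% of 50 changed 8-fold and 11.1% of 45 changed 16-fold were recovered, and 7.14% of the calls were false. The changed genes were drawn at random from all tested genes and no difference between replicates was simulated. The rates are thus not specific to the 5 genes.

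**Figure D2:**
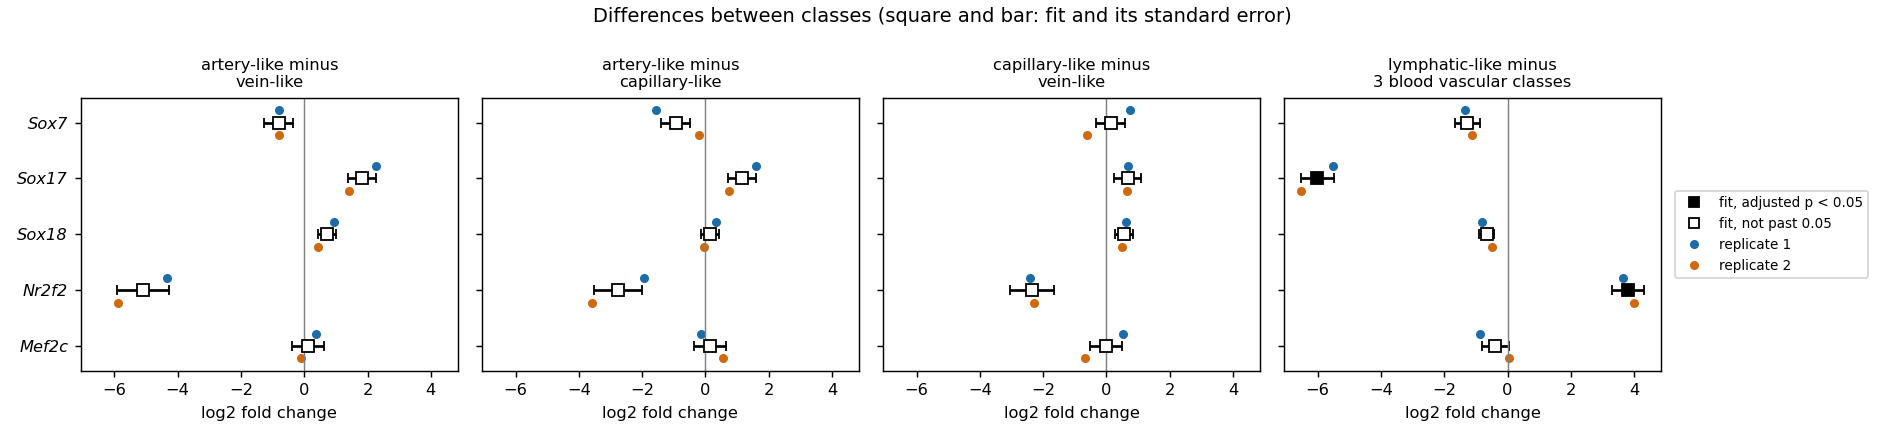
Log2 fold changes (x axis) of the 5 genes (y axis) in the 4 comparisons between classes. Squares are fitted values with bars of 1 standard error, filled where the adjusted p was under 0.05, and circles are the values within replicate 1 (blue) and replicate 2 (orange). Only *Sox17* at -6.00 and *Nr2f2* at 3.81 in the comparison of lymphatic-like with BEC wells are filled, and *Nr2f2* between artery-like and vein-like wells lies at -5.10 with a bar of 0.81.

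Because wells differed in depth, detection was also counted after drawing 20000 reads at random from every well (thinning), at which 1 read is worth 50 CPM. As a level for reads from other cells, wells of mural identity were used that had at least 300 CPM of *Pdgfrb* or *Kcnj8* and less than 100 CPM of *Pecam1*. There were 8 such wells in replicate 1, with a median of 197462 reads, and 38 in replicate 2, with a median of 170239. Intervals are exact binomial 95% intervals and cover counting error only.

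*Nr2f2* was found in a larger share of vein-like and lymphatic-like wells than of the other classes. A read was present in 0 of 13 artery-like wells of replicate 1 (upper limit 24.7%) and in 7.25% of those of replicate 2. Capillary-like wells had 14.9% and 7.89%. In vein-like wells the share was 49.1% (35.4 to 62.9%) in replicate 1 and 42.9% (26.3 to 60.6%) in replicate 2, and in lymphatic-like wells it was 58.8% (32.9 to 81.6%) and 64.2% (53.7 to 73.8%). The mural wells had shares of 62.5% and 63.2% and mean levels of 127 and 342 CPM, so *Nr2f2* was not particular to endothelial wells and these wells give no background for it.

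*Sox17* was found in 100% of artery-like, 67.1% of capillary-like and 69.1% of vein-like wells of replicate 1 after thinning, and in 60.9%, 50.9% and 42.9% of those of replicate 2. Its share in lymphatic-like wells was 41.2% (18.4 to 67.1%) and 9.47% (4.42 to 17.2%). Of the mural wells, 37.5% (8.52 to 75.5%) and 4 of 38 (2.94 to 24.8%) had a read, and these intervals overlap the lymphatic-like ones, so that low expression and reads from other cells could not be told apart here. The lymphatic-like wells had median depths of 129515 and 70426 reads. Without thinning, 76.5% and 25.3% of lymphatic-like wells had a *Sox17* read, but 0 of 17 wells of replicate 1 (upper limit 19.5%) and 1 of 95 of replicate 2 reached 100 CPM.

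*Sox18* was detected in 92.3% of artery-like, 153 of 161 capillary-like, 96.4% of vein-like and 64.7% of lymphatic-like wells of replicate 1, and in 63.8%, 77.2%, 77.1% and 65.3% of those of replicate 2. Mural wells had *Sox18* reads in 62.5% of 8 wells of replicate 1, an interval of 24.5 to 91.5% that spans the lymphatic-like share, but in 7.89% (1.66 to 21.4%) of replicate 2, well below it. *Sox7* was found in 53.8%, 75.8%, 74.5% and 47.1% of the classes of replicate 1, in the same order, and in 29.0%, 43.9%, 57.1% and 23.2% in replicate 2, against 12.5% and 5.26% of mural wells. For *Mef2c* the shares were 61.5%, 60.9%, 56.4% and 35.3% in replicate 1 and 43.5%, 33.3%, 45.7% and 36.8% in replicate 2. *Mef2c* was in 75.0% and 65.8% of mural wells, at 707 and 628 CPM, above its level in every endothelial class.

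**Figure D3:**
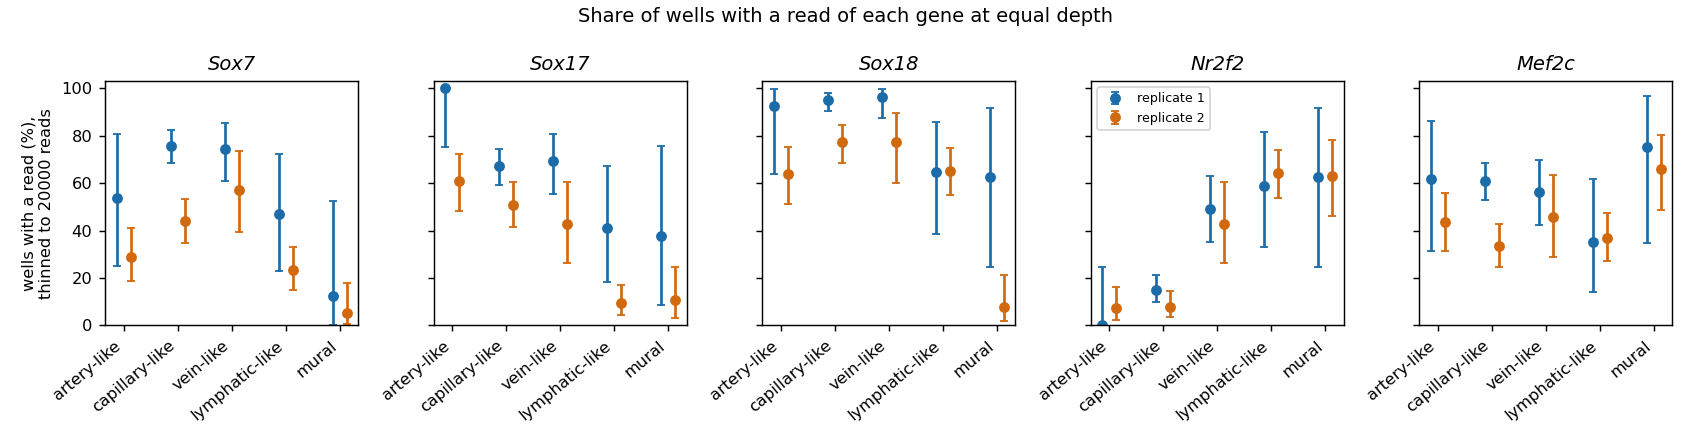
Share of wells with at least 1 read (y axis, %) of each of the 5 genes in the 4 endothelial classes and in mural wells (x axis), after each well was thinned to 20000 reads. Points are replicate 1 (blue) and replicate 2 (orange) with exact binomial 95% intervals. *Nr2f2* rises from 0 and 7.25% in artery-like to 58.8 and 64.2% in lymphatic-like wells, and *Sox17* in lymphatic-like wells, at 41.2 and 9.47%, has intervals that overlap those of the mural wells (37.5% and 4 of 38 wells).

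*Sox17* and *Nr2f2* had opposite orders over the classes, and the wells were therefore asked whether they held both. In thinned wells of the 3 BEC classes, replicate 1 had 35 wells with reads of both genes, 124 with *Sox17* only, 16 with *Nr2f2* only and 54 with neither. Replicate 2 had 13 with both, 102 with *Sox17* only, 16 with *Nr2f2* only and 87 with neither. Wells with both thus made up 15.3% (10.9 to 20.6%) and 5.96% (3.21 to 9.98%), where the product of the separate shares was 15.5% and 7.02%. Among wells with a *Sox17* read, 22.0% and 11.3% also had *Nr2f2*, and among wells without *Sox17* reads 22.9% and 15.5% had it.

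Joint detection differed by class in the way the separate shares did. Among vein-like wells, 16 of 55 in replicate 1 and 8 of 35 in replicate 2 had both genes. By contrast, 0 of 13 and 2 of 69 artery-like wells had both, and 19 of 161 and 3 of 114 capillary-like wells. In lymphatic-like wells the numbers were 3 of 17 and 6 of 95, with 7 and 55 wells that had *Nr2f2* only. At a level of at least 100 CPM for each gene and all reads, 9 vein-like wells of replicate 1 and 5 of replicate 2 held both, against products of 19.6% and 10.8% and observed shares of 16.4% (7.77 to 28.8%) and 14.3% (4.81 to 30.3%). At that level both were held by 0 of 13 and 0 of 69 artery-like wells and by 0 of 17 and 0 of 95 lymphatic-like wells. The artery-like counts were fixed in advance, since no artery-like well reached 100 CPM of *Nr2f2*. So was the lymphatic-like count of replicate 1, where no well reached 100 CPM of *Sox17*. In replicate 2 only 1 of 95 lymphatic-like wells did, for a product of 0.565% (upper limit of the joint share 3.81%). These counts therefore cannot show mutual exclusion. Both were held by 4 of 161 and 0 of 114 capillary-like wells (the latter up to 3.18%), against products of 2.62% and 1.15%.

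The 10 pairs of the 5 genes were compared in the same way in each of 4 classes and 2 replicates. A share of 0 or 100% for either gene fixes the joint share, which left 73 values after thinning and 65 at 100 CPM. The joint share was below the product of the separate shares in 29 of the 73 and in 28 of the 65. Whether a gene was found less often in wells with the other gene than in wells without it was judged by whether the 2 intervals overlapped. They overlapped in 73 of 73 values after thinning and in all but 1 of the 65 at 100 CPM. That value ran towards detection together, with *Sox18* in 98.8% (93.6 to 99.97%) of capillary-like wells of replicate 1 that had *Sox17* and in 85.5% (75.6 to 92.5%) of those that did not. Overlapping intervals do not show that genes were independent. In the other direction, 4 of 69 artery-like wells of replicate 2 had both *Sox7* and *Mef2c* after thinning, or 5.80% (1.60 to 14.2%) against a product of 12.6%, and *Mef2c* was in 20% of wells with *Sox7* and in 53.1% of those without it. In replicate 1, 4 of 13 artery-like wells had both, near the product of 33.1%. Within wells of the 3 BEC classes, *Sox17* and *Sox18* were found together in 67.2% of thinned wells of replicate 1, against a product of 66.1%, and in 43.6% of replicate 2, against 38.5%. *Sox18* was in 96.9% (92.8 to 98.97%) of wells with *Sox17* and in 91.4% (82.3 to 96.8%) of wells without it in replicate 1, and in 82.6% (74.4 to 89.0%) and 62.1% (52.0 to 71.5%) in replicate 2, where the intervals did not overlap. At 100 CPM the intervals of this pair overlapped in the pooled wells of both replicates, and after thinning they overlapped in each class of both replicates. All 3 SoxF genes had a read in 52.0% of BEC wells of replicate 1 and 19.3% of replicate 2, and none of them in 1.75% and 9.63%. In lymphatic-like wells all 3 were present in 11.8% and 1.05%.

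**Figure D4:**
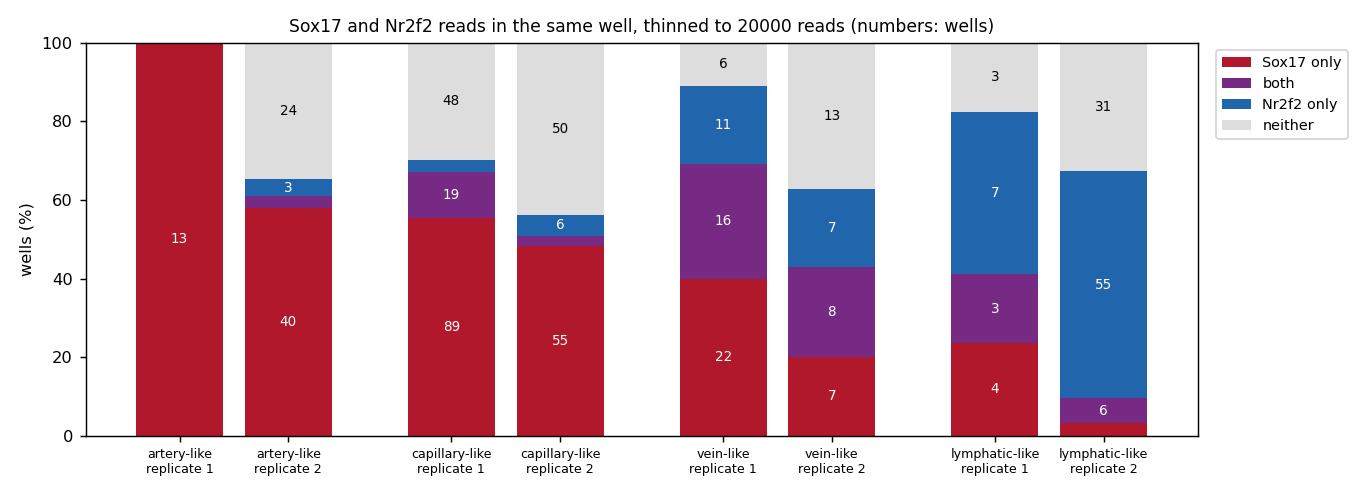
Wells (y axis, %) with reads of *Sox17* only (red), both genes (purple), *Nr2f2* only (blue) or neither (grey) in each class and replicate (x axis), thinned to 20000 reads, with numbers of wells printed in the larger segments. The purple segment holds 16 of 55 and 8 of 35 vein-like wells and 0 of 13 and 2 of 69 artery-like wells.

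The same genes were also followed without classes, along a score of artery markers minus vein markers, with the BEC and unnamed wells of each replicate split into 5 bins of equal size. Unnamed wells, with the fibroblast, keratinocyte, immune or Schwann cell markers given above, were 104 of the wells of replicate 1 and 40 of those of replicate 2. Their part in these values was not tested. *Nr2f2* had 5.91 CPM in the most arterial bin and 112 CPM in the most venous bin of replicate 1, and 1.07 and 99.7 CPM in replicate 2. It rose at every step in replicate 1, whereas the second bin of replicate 2 held 68.6 CPM, more than the third and the fourth. *Sox17* was highest in the most arterial bin, with 512 and 573 CPM, and lowest in the most venous bin, with 273 and 229 CPM, and the bins between them had 366 to 404 CPM in replicate 1 and 230 to 288 CPM in replicate 2. *Sox18* was higher in the most arterial than in the most venous bin of both replicates, at 1280 against 937 CPM and 800 against 667 CPM, with no steady order of the bins between them. *Sox7* was lowest at the 2 ends in replicate 1 and highest there in replicate 2, and *Mef2c* ranged from 165 to 290 and from 87.0 to 400 CPM.

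**Figure D5:**
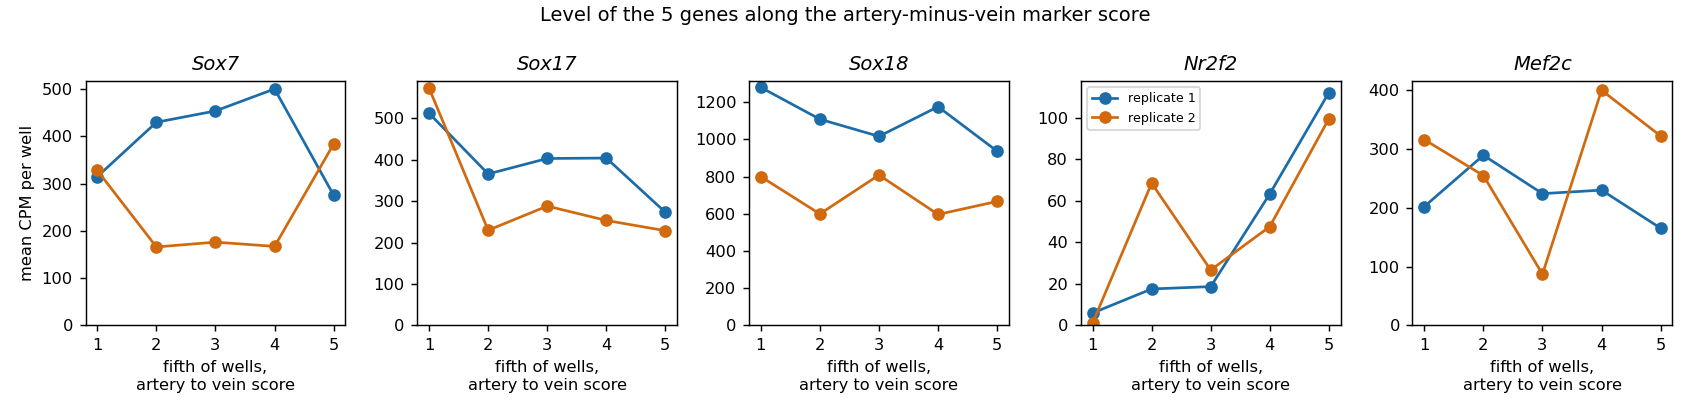
Mean CPM per well (y axis, linear, a separate scale for each gene) of the 5 genes in 5 bins of wells ordered by a score of artery markers minus vein markers, from most arterial (bin 1) to most venous (bin 5) on the x axis, in replicate 1 (blue) and replicate 2 (orange). *Sox17* falls from 512 and 573 CPM to 273 and 229 CPM, *Nr2f2* rises from 5.91 and 1.07 to 112 and 99.7 CPM, and *Sox7* takes opposite shapes in the replicates.

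Related genes were counted in the same comparisons. In the 3 comparisons among BEC classes, no gene passed the threshold of 8 tested SOX genes outside SoxF, 2 COUP-TF relatives, 12 genes of the MEF2 family with its regulators and targets, 13 arterial Notch and guidance genes and 4 venous and lymphatic receptor genes. The arterial Notch and guidance genes had a median log2 fold change of 1.26 between artery-like and vein-like wells and the receptor genes of -2.04, where the median of all tested genes was -0.21. *Dll4*, a Notch ligand of arteries chosen here after its values were seen, had 811 and 668 CPM in artery-like and 236 and 152 CPM in vein-like wells, a log2 fold change of 2.54 ± 0.44 (adjusted p = 0.152). *Dll1*, another Notch ligand of that list and also chosen after its values were seen, had 0.513 and 12.9 CPM in artery-like and 70.8 and 225 CPM in vein-like wells, a log2 fold change of -4.58 ± 1.11 (adjusted p = 0.386).

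In lymphatic-like against BEC wells, 2 of the 39 related genes tested passed, both lower, where 2.8% of all tested genes passed. *Nrp1*, a VEGF and semaphorin co-receptor, had 22.0 and 6.32 CPM in lymphatic-like wells and 280 to 1157 CPM in the BEC classes, with a log2 fold change of -5.90 ± 0.67 (adjusted p = 0.00204). *Aplnr*, the apelin receptor, had 15.8 and 2.47 CPM in lymphatic-like wells, 25.1 to 796 CPM in the BEC classes and a log2 fold change of -5.72 ± 0.70 (adjusted p = 0.00319). The 2 COUP-TF relatives did not pass and are named after their values were seen. *Nr2f1*, which encodes COUP-TFI, had 7.93 and 3.44 CPM in lymphatic-like wells and at most 0.279 CPM in any BEC class, with an adjusted p of 0.0606, while *Nr2f6* had 14.9 and 67.5 CPM. None of the 12 genes linked to MEF2 passed, *Klf2* and *Klf4* included, and their median log2 fold change was -0.51 beside -0.07 for all genes.

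Across the 246 and 313 thinned wells of the 4 classes, the genes whose levels followed each member most closely were found among 2327 genes by Pearson's r of log2(CPM + 1), taking the lower r of the replicates. Wells share plates and depth, and the classes differ in their levels of the members, so differences between classes enter r. These values are descriptions. *Nr2f2* was most like *Lbp* (r = 0.38 and 0.37), *Prss23* (0.26 and 0.41) and *Cd63* (0.24 and 0.28). *Sox17* was most like *H2-K1* (0.24 and 0.31), *Sparcl1* (0.23 and 0.39) and *Lgals3bp* (0.24 and 0.20), and *Sox18* like *Tspan7* (0.24 and 0.29), *Ly6a* (0.23 and 0.27) and *Bst2* (0.22 and 0.27). For *Sox7* these were *Sgk1* (0.30 and 0.27), *Mcl1* (0.26 and 0.24) and *Gm10382* (0.23 and 0.33). No gene exceeded 0.19 in both replicates for *Mef2c*, with *Gm9917*, *Mapk3* and *Fbln2* in the lead. Between the members themselves, *Sox17* and *Nr2f2* had r = -0.11 and -0.27, and *Sox17* and *Sox18* 0.20 and 0.26. Of the wells used, 17 and 95 were lymphatic-like, where *Sox17* was lowest and *Nr2f2* highest, and r within single classes is not given here.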

How the data were processed

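Single ear dermal cells on 4 plates were analysed. The deposited values are whole-number counts of reads, which the authors obtained with TopHat2 2.1.1 (mm10), SAMtools 0.1.18 for removal of duplicates and Subread 1.4.6-p5 for counting. The annotation release is not given in the sources used here. Symbols were matched for 46005 of 46517 identifiers, and spike-ins were left out of library sizes.

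Wells had 600 reads or more and 500 to 8000 genes before the limits given above, and no doublets were called. Each replicate was clustered on its own (leidenalg 0.10.2, 10 principal components, 15 neighbours, resolution 0.6). Clusters were named from at least 5 markers with higher levels than elsewhere and a lead of 2 over other classes. These choices were set after trial clusterings, before class levels of the 5 genes were computed in them. The 5 genes and the related lists were chosen with earlier results of these data known.

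Counts summed per class and replicate were tested with edgeR 4.0.16 (TMM, replicate as block, a minimum of 10 counts in 2 or more sums, residual df 3). The block reflects that all classes in a replicate were sorted onto shared plates, and deviations of same-numbered sums correlated at 0.0588 to 0.141. Related genes were named where they passed the threshold with the same sign in both replicates, with the exceptions stated in the text. Likeness needed a read in 20% of wells. DESeq2 1.42.0, limma 3.58.1 (log2, pseudocount 1) and other limits, depths and class rules were alternatives. The code was tested on simulated data. R 4.3.3 and Python 3.11.15 were used.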

Additional observations from a re-analysis of the deposited data

Results flagged for a closer look

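Among 20 sets of 4 plate means, 1 plate stood apart from the other 3, and about 1 in 20 such sets does so by chance. *Nr2f2* in vein-like wells had 204.7 CPM on plate B of replicate 2, from 13 wells, and 86.0 to 105 CPM on the other plates. Reads of the 5 genes were also present in wells that entered no comparison. In the unnamed wells of replicates 1 and 2, mean levels were 367.5 and 32.5 CPM of *Sox7*, 336.2 and 98.7 CPM of *Sox17*, 1141 and 286.6 CPM of *Sox18*, 59.1 and 98.8 CPM of *Nr2f2* and 223.1 and 464.3 CPM of *Mef2c*. Unnamed wells of replicate 1 had a median of 149010 reads and those of replicate 2 of 44758.5 reads. Mural wells had 21.0 and 2.44 CPM of *Sox7*, 67.0 and 39.4 CPM of *Sox17*, 166 and 55.9 CPM of *Sox18*, 127.3 and 342 CPM of *Nr2f2* and 707.1 and 628.3 CPM of *Mef2c*. In mural wells of replicate 2 a single well gave 92.9% of the *Sox17* sum and a single well 62.8% of the *Sox18* sum. In those of replicate 1 single wells gave 54.8% of the *Sox17*, 86.6% of the *Sox18* and 68.7% of the *Sox7* sum.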

How the results depend on the processing

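*Sox17* and *Nr2f2* kept their direction in all 15 refitted alternatives between lymphatic-like and BEC wells, and passed in 14. With the limit of 10 CPM, which left 1 to 9 wells per class in replicate 1, 0 of the 5 genes and 87 of 13497 genes in all passed. Between artery-like and vein-like wells 1 gene, *Nr2f2*, passed with wells thinned to 20000 reads, with DESeq2's Wald test and with no low-count filter, where 38 of 12072, 701 of 15742 and 76 of 26468 genes passed in all. Without a replicate block, *Sox17* and *Nr2f2* had -5.90 (adjusted p = 0.00157) and 3.81 (0.00246) in lymphatic-like against BEC wells, and no call of the 5 genes differed from the blocked fit.

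Signs turned in 24 of 68 alternatives for *Mef2c*, 8 for *Sox7*, 5 for *Sox18*, 1 for *Nr2f2* and 0 for *Sox17*, always without passing the threshold, and the cause was not tested. For artery-like against vein-like wells, *Mef2c* turned to -0.98 and -0.09 on the log2 scale (limits of 10 and 300 CPM), -0.51 (plate B), -0.21 (thinned), -0.01 (*Pecam1*, *Cdh5* and *Kdr* all required) and -0.14 (limma), and *Sox7* to 0.10 (all 3 required). For artery-like against capillary-like wells, *Mef2c* turned to -0.94 and -0.23 (both limits), -0.004 (marker scores), -0.20 (thinned), -0.55 (all 3 required) and -0.12 (limma), *Sox18* to -0.03 (marker scores), -0.07 (thinned) and -0.14 (limma), *Sox7* to 0.36 (all 3 required) and 0.14 (variable genes), and *Nr2f2* to 0.33 (variable genes). For capillary-like against vein-like wells, *Sox7* turned to -3.64 (limit of 10 CPM), -0.06 (marker scores), -0.26 (all 3 required) and -0.48 (variable genes), and *Mef2c* to 0.14 (limit of 300 CPM), 0.54 (plate A), 0.31 (marker scores), 0.54 (all 3 required), 0.25 (variable genes) and 0.04 (no filter). In lymphatic-like against BEC wells, *Sox18* turned to 0.27 and *Mef2c* to 1.26 at 10 CPM, and *Mef2c* to 0.26 on plate B.

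Leaving out each replicate leaves single sums and no test. *Mef2c* then ranged from -0.12 to 0.38, from -0.15 to 0.57, from -0.69 to 0.53 and from -0.88 to 0.06 in the 4 comparisons, in the order above. *Sox18* ranged from -0.05 to 0.33 in artery-like against capillary-like wells, and *Sox7* from -0.61 to 0.74 in capillary-like against vein-like wells. With all reads, 43.7% of BEC wells of replicate 1 and 16.5% of replicate 2 held both *Sox17* and *Nr2f2*. In replicate 1 this moved to 33.3% (limit of 10 CPM), 26.6% (thinned to 50000 reads), 15.3% (thinned to 20000 reads) and 36.8% (mural markers under 300 CPM), and in replicate 2 to 9.14% and 5.96% (both depths). The share moved with the depth. Clusters of variable genes and the limit on mural markers were chosen after seeing the data.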
